A study of Mus musculus with 2 samples.

Results

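The teneurins, latrophilins and FLRT proteins are surface molecules of developing neurons that bind one another across the gap between cells. The genes described here are the rows of the deposited gene list whose symbol is 1 of 9 chosen from these families. They are the teneurins Tenm1, Tenm2, Tenm3 and Tenm4, the latrophilins Adgrl1, Adgrl2 and Adgrl3, and the FLRT genes Flrt2 and Flrt3. All 9 were present among 33,696 genes, and further family members are on a list of partners described below. They were followed in nuclei of the mouse hippocampus at postnatal day 19 by single-nucleus RNA sequencing. Control mice were Cicflox/flox, with both copies of Cic, the gene of the transcriptional repressor Capicua, flanked by loxP sites. The library labelled knockout came from Emx1-Cre; Cicflox/flox littermates, in which Cre is made in the lineage of the dorsal telencephalon. That lineage gives rise to the excitatory neurons of the hippocampus and to many of its glia, and not to its interneurons or microglia. For each genotype, tissue of 3 mice (2 males and 1 female, 1 hippocampus per animal) was pooled, so every group is a single library and no difference between them has a replicate check. The title of the series names the connection from mossy fibers, the axons of dentate granule cells, to CA3.

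Teneurins are large transmembrane proteins with a long extracellular part that binds latrophilins and, for some members, a teneurin on the opposite cell. Latrophilins are adhesion G protein-coupled receptors that sit mainly on the postsynaptic side. FLRT proteins are leucine-rich repeat proteins that bind latrophilins through 1 surface and Unc5 receptors through another, so that they can attract or repel a growth cone. In the hippocampus Tenm3 is known for guiding axons of the proximal part of CA1 to the distal subiculum, which also bears it. Latrophilin-2, the product of Adgrl2, is known from the distal part of CA1 and the proximal subiculum, from which it repels Tenm3-bearing axons. Latrophilin-2 and latrophilin-3 are known to act at different excitatory synapses on CA1 dendrites.

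The identifiers of the 9 genes in the deposited list were ENSMUSG00000016150 (Tenm1, chromosome X), ENSMUSG00000049336 (Tenm2, chromosome 11), ENSMUSG00000031561 (Tenm3, chromosome 8) and ENSMUSG00000048078 (Tenm4, chromosome 7) for the teneurins. The latrophilins were ENSMUSG00000013033 (Adgrl1, chromosome 8), ENSMUSG00000028184 (Adgrl2, chromosome 3) and ENSMUSG00000037605 (Adgrl3, chromosome 5). The FLRT genes were ENSMUSG00000047414 (Flrt2, chromosome 12) and ENSMUSG00000051379 (Flrt3, chromosome 2). Since Capicua binds DNA at octamers with the letters TGAATGAA, TGAATGGA, TCAATGAA or TCAATGGA, the promoters were searched for these 4 on both strands. RefSeq promoters of build GRCm38.p6, which run from 250 bases before a start to 50 after it, were found for all 9 genes, with 12 starts. None of the 12 windows held any of the octamers, which stand in 3.84% of 32,851 promoter windows of the same length. The absence says only that these letters are not in these windows. The 250 bases before the start are shown for Flrt2, the 1 member past the size threshold in dentate granule-like nuclei (chr12:95691976-95692225, plus strand), and for the first start of Tenm4, which was past it in oligodendrocyte-like nuclei (chr7:96170994-96171243, plus strand). Both read 5′ to 3′, and no letter is in capitals since neither holds an octamer.
Flrt2: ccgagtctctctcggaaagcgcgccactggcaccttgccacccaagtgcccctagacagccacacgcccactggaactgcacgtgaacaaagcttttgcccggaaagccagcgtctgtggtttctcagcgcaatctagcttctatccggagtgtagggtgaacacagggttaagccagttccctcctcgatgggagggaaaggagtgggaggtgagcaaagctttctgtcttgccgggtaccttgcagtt
Tenm4: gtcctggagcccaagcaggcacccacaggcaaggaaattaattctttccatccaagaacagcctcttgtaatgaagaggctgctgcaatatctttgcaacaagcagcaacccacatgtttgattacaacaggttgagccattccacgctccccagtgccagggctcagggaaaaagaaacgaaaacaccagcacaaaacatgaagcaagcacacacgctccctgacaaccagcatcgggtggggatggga
G and C made up 57.2% of the Flrt2 stretch and 50.8% of the Tenm4 stretch.

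The deposited matrices held 25,907 control barcodes with 314,453,640 UMIs (unique molecular identifiers, 1 per captured RNA molecule) and 23,207 barcodes with 252,995,761 UMIs in the library labelled knockout. After filters and removal of doublets, 21,837 control nuclei and 20,529 nuclei of the other library remained, with median depths of 9783 and 8765 UMIs, and 175 barcode sequences occurred in both libraries. Nuclei were clustered together without the 9 genes, and clusters were named from marker genes with the ending "-like". Of the named classes, 16 had at least 100 nuclei in each library and are described. For Cic itself, dentate granule-like nuclei held 513 UMIs in each library, or 9.12 CPM in the control and 12.6 CPM in the other. CPM are UMIs of a gene per 1,000,000 UMIs of its class in that library. The labels used here do not say which exons the floxed allele loses, so these 3′ counts do not check the deletion, and the second library is called by its label throughout. Etv4, a gene that Capicua is known to repress, was at 1.07 CPM in control and 113 CPM in labelled knockout dentate granule-like nuclei. It was also higher in 2 classes outside the Emx1 lineage. Microglia-like nuclei had 4.25 and 31.6 CPM (14 and 84 UMIs), and inhibitory-like nuclei 2.33 and 9.20 CPM (51 and 175 UMIs). The source of the Etv4 counts in these 2 classes was not tested. Nuclei of both libraries showed UMIs of Xist or of Y-linked genes, and 29.6% and 30.6% were female by these counts.

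Each teneurin had its own distribution over the classes of the control library. Tenm1 was highest in inhibitory-like nuclei at 1196 CPM, followed by dentate granule-like nuclei at 1114 CPM and deep cortical layer-like nuclei at 913 CPM, with no overlap of their counting intervals. The same 3 classes led in the library labelled knockout, with dentate granule-like nuclei first at 1270 CPM. Tenm1 was far lower in the pyramidal classes, with 308 CPM in CA1-like and 159 CPM in CA3-like nuclei. Oligodendrocyte precursor-like nuclei came next at 512 CPM, and astrocyte-like nuclei were last at 17.7 CPM. Tenm2 was high in inhibitory-like nuclei and in every excitatory class other than Cajal-Retzius-like nuclei, from 1522 CPM in CA2-like nuclei to 6771 CPM in subicular-like nuclei. Its lowest level was 101 CPM in astrocyte-like nuclei. Microglia-like nuclei, which are not known to make it, still gave 223 and 189 CPM of Tenm2, with 17.5% of the control UMIs in 5 nuclei, and 6.32% of control nuclei of the class held UMIs of both sexes. These counts were 0.69 and 0.58 times an estimate of free RNA, the RNA carried into droplets from other cells. The estimate was made from other neuronal genes in microglia-like nuclei, at 153 UMIs per nucleus in the control and 108 in the other library. The same amounts per nucleus were taken for every other class, where free RNA was not estimated separately.

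Tenm3 was uneven among the hippocampal neurons. It reached 1690 CPM in inhibitory-like, 1316 CPM in subicular-like, 1197 CPM in deep cortical layer-like and 1149 CPM in CA1-like nuclei. CA3-like nuclei had 109 CPM, dentate granule-like nuclei 92.9 CPM and CA2-like nuclei 18.1 CPM, the lowest of the 16 classes. Astrocyte-like nuclei (1025 CPM) and radial glia-like nuclei (898 CPM) also held Tenm3, and 93.5% of control astrocyte-like nuclei had a UMI of it. Tenm4 was highest in Cajal-Retzius-like nuclei at 1288 CPM, then in CA3-like nuclei at 919 CPM and immature dentate granule-like nuclei at 896 CPM, whose intervals overlapped. In dentate granule-like nuclei it was 149 CPM, well under the immature class. The lowest Tenm4 level was 17.7 CPM in oligodendrocyte precursor-like nuclei, under the 35.2 CPM of microglia-like nuclei.

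**Figure D1:**
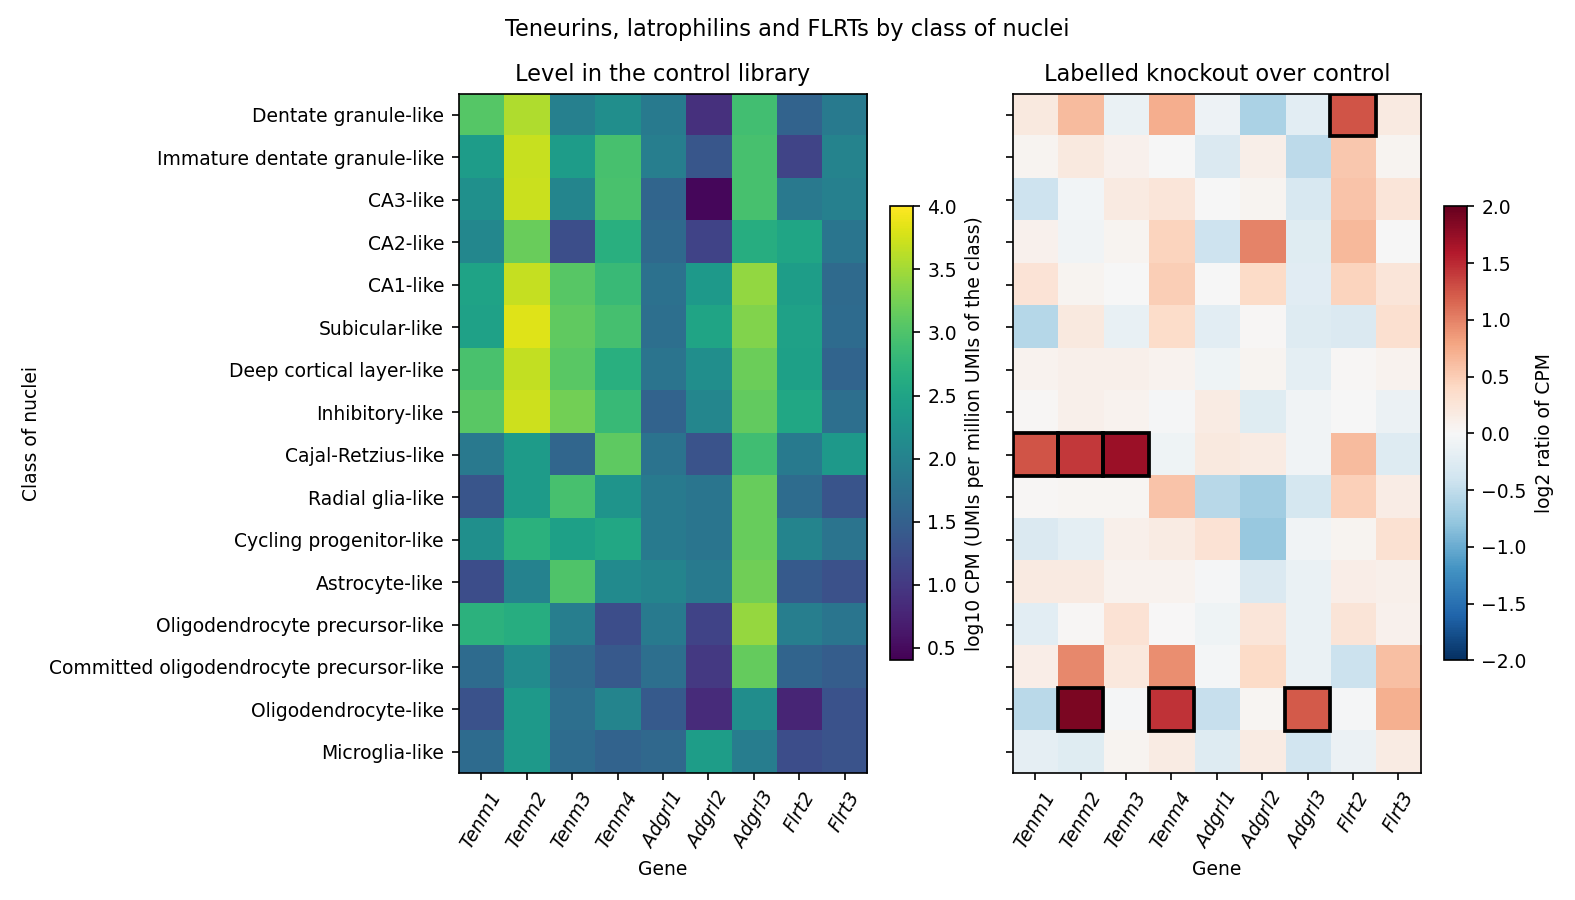
Left, level of each of the 9 genes (columns) in each of 16 classes of nuclei (rows) of the control library, as log10 CPM. Right, log2 ratio of CPM, labelled knockout over control. Black frames mark the 7 ratios past the size threshold of at least 2-fold. Tenm2 is high in all classes of excitatory and inhibitory neurons except Cajal-Retzius-like nuclei, and Adgrl2 is low in dentate granule-like and CA3-like nuclei.

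Among the latrophilins, Adgrl2 had the most uneven distribution, from 2.89 CPM in CA3-like nuclei to 313 CPM in subicular-like nuclei. CA1-like nuclei had 224 CPM of it, deep cortical layer-like nuclei 149 CPM and inhibitory-like nuclei 113 CPM. Dentate granule-like nuclei had only 8.0 CPM. Microglia-like nuclei had 251 CPM, with a UMI in 34.4% of nuclei, and the count was 36.8 times the free RNA estimate. Adgrl3 was highest in oligodendrocyte precursor-like nuclei at 2725 CPM and CA1-like nuclei at 2619 CPM. Its level was 806 CPM in dentate granule-like and 906 CPM in CA3-like nuclei, with 898 CPM in immature dentate granule-like nuclei, and it was lowest in microglia-like nuclei at 84.0 CPM, where the count was 0.84 times the free RNA estimate. Adgrl1 varied least, between 26.7 CPM in oligodendrocyte-like nuclei and 106 CPM in astrocyte-like nuclei, and most neighbouring classes in its order had overlapping intervals.

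Flrt2 was highest in inhibitory-like nuclei (350 CPM) and CA2-like nuclei (325 CPM), whose intervals overlapped, followed by subicular-like, deep cortical layer-like and CA1-like nuclei at 284, 277 and 257 CPM. It was much lower in CA3-like nuclei, at 72.5 CPM, and in dentate granule-like nuclei, at 34.7 CPM. Immature dentate granule-like nuclei, at 13.7 CPM, were lower than microglia-like nuclei at 17.6 CPM, and oligodendrocyte-like nuclei were last at 5.99 CPM. Flrt3 had another order. Cajal-Retzius-like nuclei led at 213 CPM, followed by immature dentate granule-like nuclei at 103 CPM and CA3-like nuclei at 93.6 CPM, with CA1-like nuclei at 44.5 CPM. Flrt3 lies within Macrod2 on the opposite strand in the GENCODE annotation, and Macrod2 gave 109,642 UMIs in control dentate granule-like nuclei against 4128 for Flrt3. How reads on either strand were counted is not given in the sources used here, so Flrt3 is uncertain to that extent. Flrt2 overlaps no other gene there.

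A difference between the libraries was counted by size when the gene was at least 2-fold apart and, in whichever library had more of it, reached 50 UMIs and 10 CPM. This is a rule of size and no test. Intervals are 95% intervals for counting error only and do not cover differences between mice or preparations. In dentate granule-like nuclei 1 of the 8 members with enough UMIs passed, against 3.29% of 8426 genes. None of 9 passed in CA1-like nuclei (4.13% of all genes with enough UMIs), none of 8 in CA3-like nuclei (1.8%) and none of 9 in inhibitory-like nuclei (0.102%). In oligodendrocyte-like nuclei 3 of 7 passed (3.29%), and in Cajal-Retzius-like nuclei 3 of 8 (1.95%). No member passed in the other 10 classes, where the share of all genes was 3.27% (CA2-like), 3.16% (subicular-like), 1.34% (committed oligodendrocyte precursor-like), 1.14% (deep cortical layer-like), 0.829% (radial glia-like), 0.633% (cycling progenitor-like), 0.345% (immature dentate granule-like), 0.312% (microglia-like), 0.234% (astrocyte-like) and 0.213% (oligodendrocyte precursor-like). All 7 differences past the threshold were higher in the library labelled knockout. Most genes past it were higher too: 189 against 88 lower in dentate granule-like, 175 against 91 in oligodendrocyte-like and 76 against 6 in Cajal-Retzius-like nuclei. Adgrl2 in CA2-like nuclei came close to the threshold, with 47 and 64 UMIs, or 13.3 and 26.6 CPM, a log2 ratio of 0.99. That ratio was 2.25 in female and -0.028 in male nuclei. A list of 9 genes is too short for these shares to say more than which genes passed.

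In dentate granule-like nuclei the gene past the threshold was Flrt2. It had 1949 UMIs in 4589 control nuclei and 3386 UMIs in 3666 labelled knockout nuclei, or 34.7 and 83.1 CPM. The log2 ratio was 1.26 (1.18 to 1.34), a 2.40-fold difference. Of control nuclei 24.1% had a Flrt2 UMI, and 9.8% had at least 2. In the library labelled knockout these shares were 44.8% and 23.1%, and the highest count in a single nucleus was 13 in the control and 12 in the other library, so the difference was spread over many nuclei. With each nucleus thinned to 2000 UMIs, the shares were 6.54% and 14.4%, against 2.91% and 2.72% in microglia-like nuclei, whose unthinned median depths were 2133 and 1719 UMIs against 11,736 and 10,662 in dentate granule-like nuclei.

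At a clustering resolution of 1 the dentate granule-like class consisted of 2 clusters that the libraries filled unequally. Cluster 0 held 24.2% of the control nuclei of the class and 96.1% of the labelled knockout nuclei, and cluster 2 held the rest. Within cluster 0, Flrt2 was 25 CPM in control and 83.1 CPM in labelled knockout nuclei, a log2 ratio of 1.73 (1.56 to 1.91). Within cluster 2 the levels were 37.4 and 82.0 CPM, with a ratio of 1.14 (0.87 to 1.39), although only 144 labelled knockout nuclei fell there. By sex, the ratio was 1.44 in female nuclei, which come from 1 mouse in each library, and 1.20 in male nuclei. Flrt2 was thus past 2-fold in both clusters and both sexes. The summed level of 8 marker genes of immature dentate granule cells was 108 CPM in control and 177 CPM in labelled knockout dentate granule-like nuclei, and all 8 were higher. The 8 markers of dentate granule cells summed to 4873 and 3623 CPM, and 1 was higher. Within cluster 0 the sums of immature markers were 214 and 181 CPM. The part of these markers in the Flrt2 difference was not tested. At a clustering resolution of 2 the class had 3 clusters, and the Flrt2 ratio was 1.06 in cluster 0 (3252 control and 110 labelled knockout nuclei), 1.52 in cluster 1 (1122 and 1493) and 2.14 in cluster 3 (213 and 2061).

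Tenm4 and Tenm2 came next in size among the members with enough UMIs in dentate granule-like nuclei. Tenm2, a teneurin found in nearly every nucleus of the class, had 209,841 UMIs in control and 234,578 in labelled knockout nuclei, or 3732 and 5757 CPM, a log2 ratio of 0.63 (0.62 to 0.63). Its median count per nucleus was 32 UMIs in the control and 50 in the other library. Tenm4 had 149 and 247 CPM, with a UMI in 42.3% and 59.4% of nuclei and a log2 ratio of 0.73 (0.69 to 0.77). Within cluster 0 the ratio was 0.05 for Tenm2 and 0.03 for Tenm4, and within cluster 2 it was 0.30 and 0.53. In the clusters of resolution 2, taken in the order above, Tenm2 was at 0.33, 0.26 and -0.39 and Tenm4 at 0.59, 0.08 and -0.80, so both were lower in the last. Control nuclei of cluster 0 had 5639 CPM of Tenm2 against 3202 CPM in control nuclei of cluster 2, and 244 against 122 CPM of Tenm4. The 2 clusters also differed in immature markers, whose sum in control nuclei was 214 CPM in cluster 0 and 78.9 CPM in cluster 2. The part of these markers in the Tenm2 and Tenm4 differences was not tested.

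**Figure D2:**
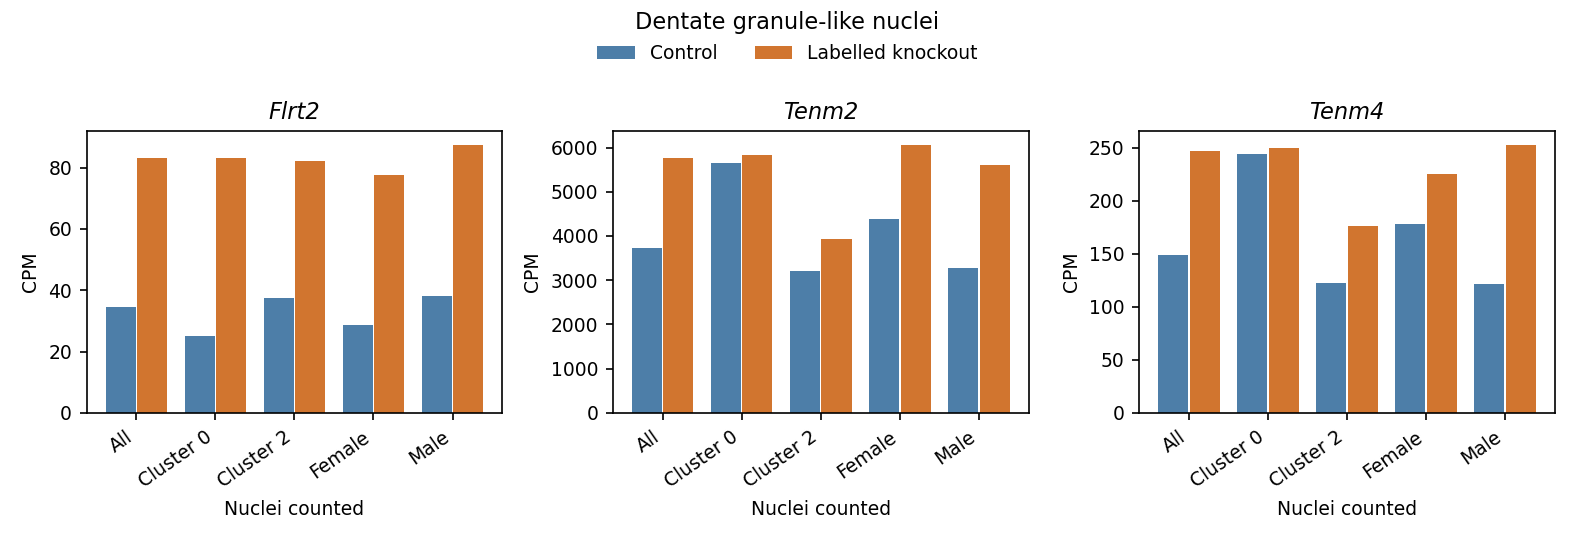
CPM of Flrt2, Tenm2 and Tenm4 in dentate granule-like nuclei of the control library (blue) and the library labelled knockout (orange). Bars show all nuclei of the class, each of its 2 clusters, and female and male nuclei, with 1 library per bar and no replicate error. Flrt2 is more than 2-fold apart in every pair of bars, whereas Tenm2 and Tenm4 are nearly level within cluster 0.

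For Tenm4 in this class the log2 ratio was 0.34 in female and 1.06 in male nuclei. Control female nuclei had 178 CPM and control male nuclei 122 CPM, while the labelled knockout values were 225 and 253 CPM. Within cluster 0 the ratio was -0.38 in female nuclei and 0.46 in male nuclei. Since the female nuclei of a library come from a single mouse, sex and mouse cannot be told apart. Tenm2 gave 0.46 and 0.78 in the same order, with 4394 and 3267 CPM in control female and male nuclei. Within cluster 0 Tenm2 was at -0.065 and 0.18, and within cluster 2 at 0.007 and 0.50.

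The remaining members of dentate granule-like nuclei differed by less. Tenm1 had 1114 and 1270 CPM, a log2 ratio of 0.19 (0.17 to 0.21). Tenm3 had 92.9 and 84.9 CPM (-0.13, -0.19 to -0.07). Adgrl1 had 73.1 and 67.8 CPM (-0.11, -0.18 to -0.04), and Flrt3 had 73.4 and 82.7 CPM (0.17, 0.11 to 0.24). In clusters 0, 1 and 3 of resolution 2, Tenm1 was at 0.20, 0.005 and -0.048, and Flrt3 at 0.05, 0.11 and -0.22. Tenm3 was at -0.01, -0.07 and -0.14 there, and Adgrl1 at -0.02, -0.14 and 0.08. By sex, Tenm1 was at 0.02 in female and 0.28 in male nuclei, and Flrt3 at -0.04 and 0.28. Adgrl3, a receptor that binds both FLRTs and teneurins, was 806 CPM in control and 699 CPM in labelled knockout nuclei, a ratio of -0.21 (-0.23 to -0.18). Within the clusters of resolution 1 Adgrl3 was lower by more, at -0.34 in cluster 0 and -0.59 in cluster 2. At resolution 2 it was at -0.61 in cluster 0, and at -0.12 in cluster 1 and -0.13 in cluster 3, which held most labelled knockout nuclei. Adgrl2 stayed under the 10 CPM minimum in both libraries, at 8.0 and 5.18 CPM. Over the 8 members with enough UMIs the median ratio was 0.18, beside 0.02 over all genes with that minimum.

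In CA3-like nuclei, the target of the mossy fibers, no member reached 2-fold. Flrt2 was again the furthest apart. It had 1729 UMIs in 955 control nuclei and 2092 UMIs in 874 labelled knockout nuclei, or 72.5 and 108 CPM, a log2 ratio of 0.57 (0.48 to 0.67). Tenm1 went the other way, with 159 and 119 CPM, a ratio of -0.42 (-0.49 to -0.34), and the share of nuclei with a Tenm1 UMI was 60.2% and 50.7%. Adgrl3 was also lower, at 906 and 729 CPM (-0.31, -0.34 to -0.28). Tenm4 had 919 and 1089 CPM (0.24), Flrt3 93.6 and 110 CPM (0.24) and Tenm3 109 and 124 CPM (0.19). Tenm2 was within a few percent, at 5211 and 5010 CPM (-0.06), and Adgrl1 was level at 37.6 and 37.3 CPM. For Adgrl2 only 69 and 58 UMIs were counted, and its interval ran from -0.48 to 0.57. The 4 ratios above 0 and the 4 below gave a median of 0.09 over members with enough UMIs, beside 0.07 over all such genes.

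**Figure D3:**
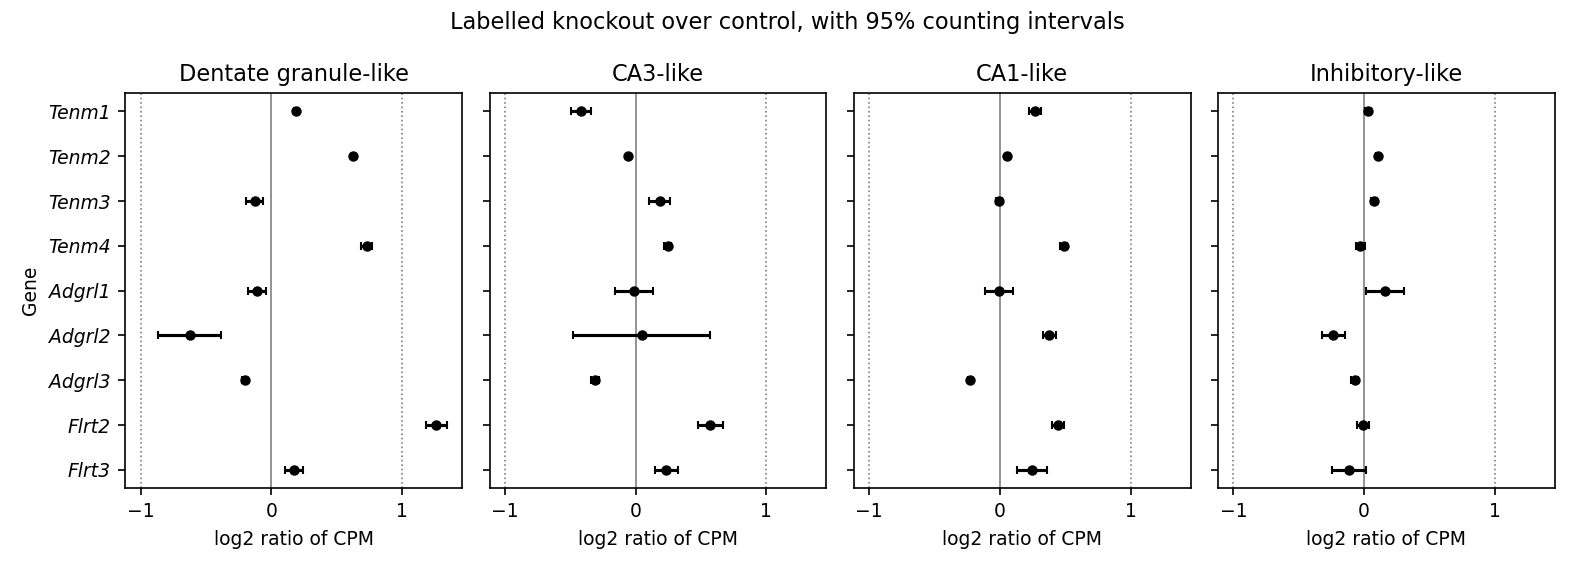
Log2 ratio of CPM, labelled knockout over control, for the 9 genes in dentate granule-like, CA3-like, CA1-like and inhibitory-like nuclei. Points are ratios, bars are 95% intervals for counting error only, and dotted lines mark 2-fold. Flrt2 lies past the dotted line in dentate granule-like nuclei only, and inhibitory-like nuclei keep all 9 genes within 0.24 of 0.

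In CA1-like nuclei Tenm4, Flrt2, Adgrl2, Tenm1 and Flrt3 were higher in the library labelled knockout and Adgrl3 was lower. Tenm4 had 688 and 965 CPM, a log2 ratio of 0.49 (0.46 to 0.52). Flrt2 had 257 and 350 CPM (0.44, 0.40 to 0.49), with a UMI in 89.5% and 95.3% of nuclei. Adgrl2, the latrophilin that repels Tenm3-bearing axons, had 224 and 292 CPM (0.38, 0.33 to 0.43). Adgrl3 had 2619 and 2232 CPM (-0.23, -0.25 to -0.21). Tenm1 had 308 and 371 CPM (0.27, 0.23 to 0.31), and Flrt3 had 44.5 and 52.7 CPM (0.24, 0.13 to 0.36). Tenm2 had 4831 and 5026 CPM (0.06), Adgrl1 was level at 55.3 and 55.2 CPM, and so was Tenm3 at 1149 and 1145 CPM. At a clustering resolution of 2 the class split by library: cluster 7 held 577 control and 1322 labelled knockout nuclei, and cluster 13 held 1145 and 11. Within cluster 7, Flrt2 was at 0.50, Adgrl2 at 0.33 and Adgrl3 at -0.30. Flrt3 was at 0.04 and Adgrl1 at -0.01. Tenm2 was lower in this cluster, with 5834 and 5025 CPM (-0.22), and Tenm3 was higher, with 1056 and 1137 CPM (0.11). Tenm4 was at 0.06 there, with 928 and 969 CPM, and Tenm1 was lower, with 478 and 374 CPM (-0.36). Cluster 13 had too few labelled knockout nuclei to compare.

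In the inhibitory-like class, outside the Emx1 lineage, the furthest member was Adgrl2 at 113 and 95.5 CPM (-0.24). Flrt2 was level there, at 350 and 347 CPM (-0.01, -0.06 to 0.04), and so were Tenm1 (0.03) and Tenm4 (-0.03).

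Flrt2 was also followed through the other excitatory classes. Its log2 ratio was 0.65 in CA2-like nuclei, with 325 and 512 CPM, and 0.55 in immature dentate granule-like nuclei, with 13.7 and 20 CPM. In deep cortical layer-like nuclei it was 0.02, and in subicular-like nuclei -0.28, with 284 and 234 CPM. Cajal-Retzius-like nuclei, with 75 and 133 UMIs of Flrt2, gave 0.63 (0.22 to 1.06). Hilar mossy cell-like nuclei, only 72 and 105 in number, had 167 and 165 CPM (-0.02, -0.24 to 0.19). The dentate granule-like interval (1.18 to 1.34) lay above that of each of these classes, the nearest being that of Cajal-Retzius-like nuclei, followed by the 0.25 to 0.84 of immature dentate granule-like nuclei. Whether the classes differ beyond the variation between mice cannot be tested with 1 library per group.

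Adgrl3 was lower in the library labelled knockout in 15 of 16 classes, and its counting interval lay below 0 in 13 of them. Of 2608 genes with enough UMIs in every class, 1.92% were lower in at least as many classes. The exception was the oligodendrocyte-like class. The 15 include microglia-like nuclei (-0.38), where the counts were 0.84 and 0.86 times the free RNA estimate. Subtracting free RNA left no Adgrl3 UMIs there in either library, so no ratio is given for it. The largest ratio in the downward direction was in immature dentate granule-like nuclei, at 898 and 623 CPM, a log2 ratio of -0.53. Adgrl1, its paralog, was lower in 13 of 16 classes, with intervals below 0 in 6, and 9.85% of those genes were lower in at least as many. Both counts were the same under median-of-ratios scaling. Tenm4 was higher in 13 classes, and 13.7% of those genes were higher in at least as many. Flrt3 was also higher in 13, although it lacked the minimum in radial glia-like nuclei. Under median-of-ratios scaling each was higher in 12.

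In oligodendrocyte-like nuclei, 2 teneurins and a latrophilin passed the threshold. Tenm2 had 2134 UMIs in 1191 control nuclei and 6543 UMIs in 944 labelled knockout nuclei, or 213 and 788 CPM. The log2 ratio was 1.89 (1.82 to 1.96), a 3.70-fold difference, and the median count per nucleus was 1 UMI in the control and 4 in the other library. Tenm4, whose loss is known to impair myelination, had 1066 and 2408 UMIs, or 106 and 290 CPM, a ratio of 1.45 (1.34 to 1.55). Adgrl3 had 1485 and 2883 UMIs, or 148 and 347 CPM, a ratio of 1.23 (1.14 to 1.32). The share of nuclei with at least 2 UMIs was 31.6% and 68.4% for Tenm2, 21.3% and 40.7% for Tenm4, and 26.4% and 57.6% for Adgrl3. For Flrt3 the levels were 20 and 32.7 CPM, a ratio of 0.71 that did not reach the threshold. Tenm3 was level, at 51.1 and 50.4 CPM, and Tenm1 was lower, at 20.3 and 14 CPM (-0.53). In this class the members with enough UMIs had a median ratio of 0.71, beside -0.10 over all such genes.

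With nuclei thinned to 2000 UMIs, 25.9% of control and 56.6% of labelled knockout oligodendrocyte-like nuclei had a Tenm2 UMI, whereas the shares in microglia-like nuclei were 25.7% and 24.7%. Thinning left out the shallower nuclei, 663 of 1488 and 959 of 1474 microglia-like nuclei against 11 and 15 oligodendrocyte-like nuclei. The control share was close to that of microglia-like nuclei and the other was above it. Without thinning, the Tenm2 counts were 2.50 and 11.7 times the free RNA estimate, against 0.69 and 0.58 times in microglia-like nuclei. The estimate takes the same amount per nucleus in every class, so these multiples do not measure free RNA in oligodendrocyte-like nuclei. The unthinned median depths were 8099 and 8491 UMIs in oligodendrocyte-like nuclei. For Tenm4 the thinned shares were 18.0% and 31.0%, against 5.33% and 6.41% in microglia-like nuclei. For Adgrl3 they were 21.8% and 42.8%, against 12.5% and 10.7%. With free RNA subtracted, the log2 ratios were 2.49, 1.55 and 1.44.

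Earlier cells of the lineage were compared for the same 3 genes. In oligodendrocyte precursor-like nuclei Tenm2 (443 and 450 CPM), Tenm4 (17.7 and 17.9 CPM) and Adgrl3 (2725 and 2488 CPM) had ratios of 0.02, 0.02 and -0.13. The Tenm4 counts there were 98 and 96 UMIs, 1.06 and 1.11 times the free RNA estimates of 92.5 and 86.5. With free RNA subtracted the Tenm4 ratio was 0.78, which rests on the few UMIs above the estimates. The part of free RNA in these counts was not tested. In committed precursor-like nuclei Tenm2 had 136 and 265 CPM, a ratio of 0.97, and Tenm4 had 25.5 and 48.7 CPM, a ratio of 0.93. With doublets kept these ratios were 0.32 and 0.11, and with free RNA subtracted they were 2.20 and 1.46. The control count of Tenm2 there was 1.38 times the free RNA estimate. Adgrl3 was lower in that class, at 1425 and 1293 CPM (-0.14). In the control, Adgrl3 thus stood at 2725 CPM in precursor-like, 1425 CPM in committed precursor-like and 148 CPM in oligodendrocyte-like nuclei. Oligodendrocyte-like nuclei formed 2 clusters. At resolution 1, in cluster 9, with 1028 and 801 nuclei, the ratios were 2.01 for Tenm2, 1.53 for Tenm4 and 1.52 for Adgrl3. In cluster 24, with 163 and 143 nuclei and the higher sum of committed precursor markers (3943 and 3267 CPM, against 339 and 429 CPM in cluster 9), they were 0.96, 0.55 and -0.14. At resolution 2 the class had 3 clusters, 2 of which the libraries filled unequally. In cluster 14, with 362 control and 620 labelled knockout nuclei, the ratios were 2.50 for Tenm2, 2.11 for Tenm4 and 1.66 for Adgrl3. In cluster 15, with 668 and 184 nuclei, they were 1.08, 0.48 and 0.39, and in cluster 35, with 161 and 140 nuclei, they were 1.35, 0.45 and -0.16. Tenm2 was thus past 2-fold in each of the 3, and Tenm4 and Adgrl3 in cluster 14 alone.

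**Figure D4:**
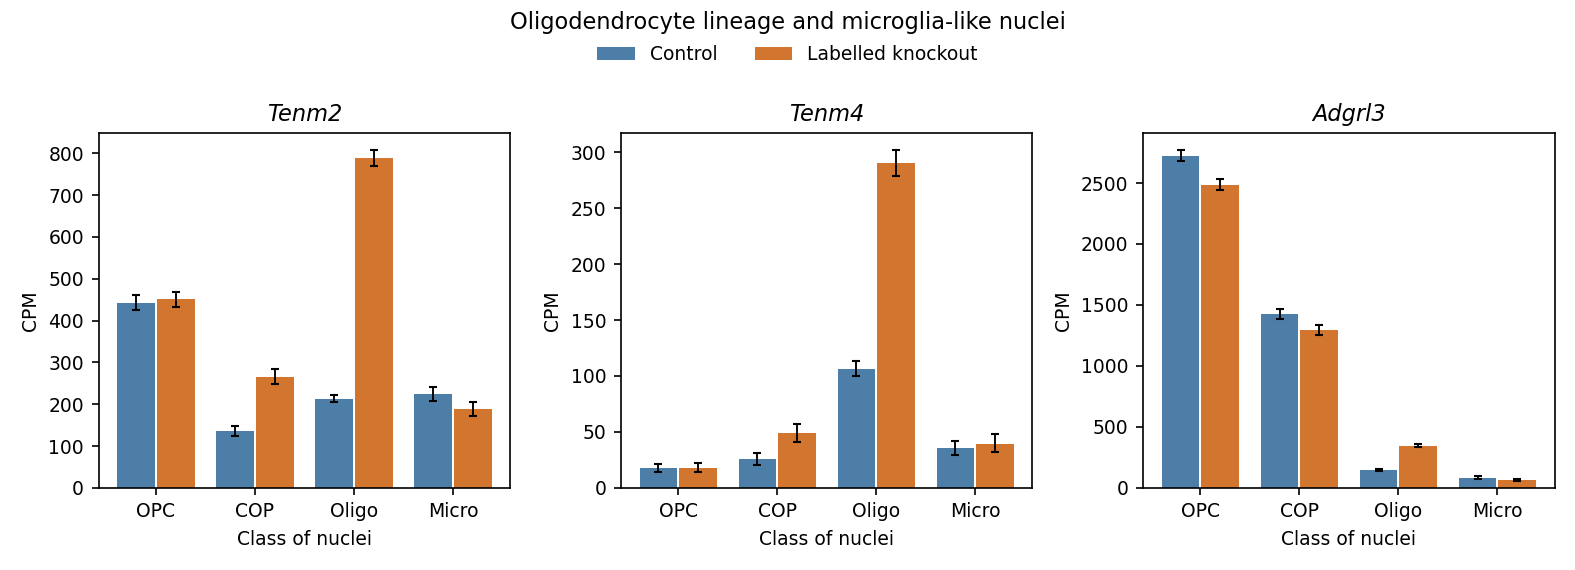
CPM of Tenm2, Tenm4 and Adgrl3 in oligodendrocyte precursor-like (OPC), committed oligodendrocyte precursor-like (COP), oligodendrocyte-like (Oligo) and microglia-like (Micro) nuclei, control in blue and labelled knockout in orange. Error bars are exact 95% Poisson intervals of the count, with 1 library per bar. In OPC Tenm2 has 443 and 450 CPM, in COP Tenm2 has 136 and 265 CPM and Tenm4 25.5 and 48.7 CPM, and in Oligo Tenm2 reaches 788 CPM against 213 CPM.

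All 3 ratios depended on leaving out doublets. With doublets kept, each in the class of most of its nearest nuclei, Tenm2 was 0.58, Tenm4 0.86 and Adgrl3 0.14, and none was past 2-fold. By sex they were 1.72 and 2.06 for Tenm2 in female and male nuclei, 1.5 and 1.34 for Tenm4, and 0.97 and 1.43 for Adgrl3. Without nuclei that held UMIs of both sexes, which cannot come from 1 mouse, they were 1.93, 1.45 and 1.29. The markers of oligodendrocytes summed to 27,146 and 25,999 CPM. Among markers of other types, the 8 inhibitory neuron genes summed to 82.1 and 86.7 CPM, with Lhx6 at 0 in the control. The CA3 list summed to 159 and 271 CPM, and 5 of its 8 genes were higher, led by Nectin3 at 49.5 and 138 CPM. The CA1 list summed to 1913 and 1912 CPM, of which Man1a made up 1801 and 1557 CPM. Ndst4 of that list had 58.3 and 279 CPM, while Fibcd1 had 2.4 and 0.7 CPM. The dentate granule list, at 5042 and 3790 CPM, was mostly Dock10, with 3975 and 2839 CPM. The part of these transcripts in the 3 differences was not tested.

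In Cajal-Retzius-like nuclei 3 teneurins passed the threshold, and for Tenm3 and Tenm2 few nuclei carried the difference. Tenm3 had 39 UMIs in 175 control nuclei and 148 UMIs in 225 labelled knockout nuclei, a log2 ratio of 1.72 (1.21 to 2.28). Of the 148 UMIs, 130 came from 5 nuclei. Without the 5 richest nuclei of each library the ratio was -0.63, and in female and male nuclei separately it was -0.16 and -1.81. Tenm2 had 233 and 711 UMIs (1.42), of which 45 and 451 came from 5 nuclei, and without them the ratio was 0.32. The share of nuclei with a Tenm2 UMI was 57.7% in the control and 54.2% in the other library, and the control count was 1.86 times the free RNA estimate. Tenm1 was spread more evenly. It had 72 and 198 UMIs, or 72.4 and 174 CPM, a ratio of 1.26 (0.87 to 1.68), with a UMI in 23.4% and 35.6% of nuclei. Without the 5 richest nuclei it was 1.34, in female nuclei 1.01 and in male nuclei 1.43, but with doublets kept it was -0.012. Tenm4, the teneurin of highest level in this class among all classes, was level at 1288 and 1215 CPM, with a UMI in 97.7% of control nuclei. Adgrl3 (775 and 736 CPM) and Flrt3 (213 and 179 CPM) were slightly lower. The 8 markers of inhibitory neurons of the medial ganglionic eminence summed to 78.4 CPM in control and 161 CPM in labelled knockout Cajal-Retzius-like nuclei, and 6 were higher. The 7 markers of oligodendrocyte precursors summed to 148 and 223 CPM, and all 7 were higher. Their part in the teneurin differences was not tested.

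In CA1-like nuclei Tenm3 and Adgrl2 were distributed in opposite directions within the class, in both libraries. CA1-like nuclei of each library were ranked by the share of their UMIs from Tenm3 and divided into 3 equal groups. In the control, Adgrl2 was 311 CPM in the group with least Tenm3, 245 CPM in the middle group and 106 CPM in the group with most Tenm3, while Tenm3 itself went from 46.3 to 477 and 3107 CPM. In the library labelled knockout, Adgrl2 was 396, 331 and 141 CPM in the same order, with 113, 602 and 2784 CPM of Tenm3. Thus Adgrl2 was higher in the library labelled knockout in each of the 3 groups. The groups were cut within each library and are not matched in Tenm3. The other latrophilins did not follow the order of Adgrl2. Adgrl3 had 2453, 2754 and 2651 CPM in the control groups, and Adgrl1 56.8, 53.6 and 55.6 CPM. Tenm2 followed Tenm3 instead, with 3750, 4948 and 5890 CPM, and Tenm1 had 187, 358 and 386 CPM. Subicular-like nuclei showed the same order of Adgrl2, less steeply, with 374, 327 and 238 CPM in control and 379, 334 and 239 CPM in labelled knockout nuclei. Nuclei of a library come from 3 mice and are not replicates, so this is a description. Across the 16 classes, on the other hand, Tenm3 and Adgrl2 went together, with a Pearson correlation of log2(CPM + 1) of 0.67 in the control and 0.58 in the other library. The classes share libraries and depth, and no p is given.

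**Figure D5:**
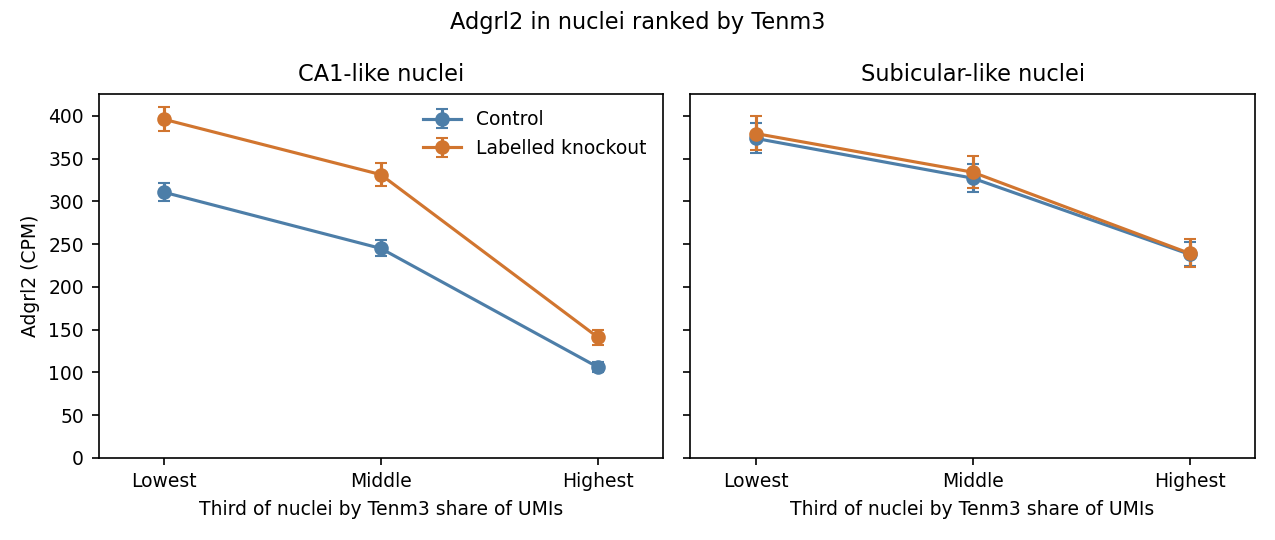
CPM of Adgrl2 in CA1-like and subicular-like nuclei of each library, divided into 3 equal groups by the share of UMIs from Tenm3. Error bars are exact 95% Poisson intervals of the count. In CA1-like nuclei Adgrl2 goes from 311 to 106 CPM in the control and from 396 to 141 CPM in the library labelled knockout.

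A list of 21 genes of the same adhesion network was set beside the members: further family members, FLRT co-receptors, other ligands of latrophilins, other partners of teneurins, and intracellular partners of latrophilins. The list was chosen with earlier results of these data known, so its counts in each class describe the list only. In dentate granule-like nuclei 3 of the 18 with enough UMIs were at least 2-fold higher and 1 was at least 2-fold lower, where 3.29% of all 8426 genes with enough UMIs passed, 189 higher and 88 lower. The FLRT co-receptors held 3 of these 4. Robo1, a receptor for Slit repellents that can bind FLRT3, had 772 and 3069 CPM, a log2 ratio of 1.99. Among the Unc5 receptors, which bind FLRTs, Unc5d had 149 and 421 CPM (1.5), while Unc5c had 405 and 163 CPM (-1.31). Unc5a was at -0.05. The contactin Cntn6, a ligand of latrophilins, had 10.0 and 21.1 CPM (1.07). Nrxn3, a neurexin and thus of a family that also binds latrophilins, had 964 and 723 CPM (-0.42). Of the intracellular partners, Shank1 was at 0.79 and Shank3 at 0.11. Dag1, to which teneurins are linked, was at -0.08.

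CA1-like nuclei had 3 of 18 listed partners past the threshold, all higher, where 4.13% of all genes passed, 252 higher and 85 lower. They were Robo1 (507 and 1626 CPM, 1.68), Cntn6 (7.51 and 17.6 CPM, 1.23) and Fgfr1, a growth factor receptor that binds FLRTs (41.7 and 88.6 CPM, 1.09). In CA3-like and inhibitory-like nuclei no partner passed, of 18 and 20 (1.8% and 0.102% of all genes). Subicular-like nuclei had 1 of 19 (3.16% of all genes), Unc5d (67.2 and 175 CPM, 1.38). Fgfr1 passed in committed oligodendrocyte precursor-like nuclei (11.3 and 28.3 CPM), the 1 of 14 there (1.34% of all genes), and in Cajal-Retzius-like nuclei (13.1 and 48.4 CPM), the 1 of 15 (1.95%). In oligodendrocyte-like nuclei none of 14 passed (3.29% of all genes), beside the 3 of 7 members.

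Among 12,682 genes compared over the 16 classes of the control library, those most like a member in level were named by the Pearson correlation of log2(CPM + 1). For Tenm2 they were Fam135b (0.98), Slc35f4 (0.97) and B230334C09Rik (0.95), and for Tenm1 they were Gabrb2 (0.92), Slc4a10 (0.89) and Syt16 (0.89). The nearest to Tenm4 was Gm15414 (0.97), a transcript that overlaps Tenm4 on the opposite strand, and the nearest to Tenm3 was Gm48321 (0.88). Flrt2 was closest to Agbl4 (0.92), Flrt3 to Kcnb2 (0.91), Adgrl1 to Sfxn2 (0.86), Adgrl2 to Cds1 (0.82) and Adgrl3 to Zfp563 (0.87). In the library labelled knockout these 9 correlations ranged from 0.73 to 0.95. Among pairs of members, Tenm1 and Tenm2 were the most alike (0.80), and Adgrl2 and Flrt3 the least (-0.34).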

How the data were processed

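Nuclei of 2 pooled hippocampal libraries were sequenced on a 10x Genomics 3′ platform, per the labels' protocols. The values deposited by the authors are UMI counts, whole numbers for every gene and barcode that have not been normalized. The submitters' processing notes name Cell Ranger 8.0.1 and build mm39. The annotation used for counting and the handling of introns are not given in the sources used here. Positions are therefore given only for promoters, from RefSeq (GRCm38.p6), and overlaps between genes come from GENCODE vM21 for GRCm38.

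Nuclei with at least 500 genes and at most 5% mitochondrial UMIs were kept. Doublets called by the Scrublet implementation of scanpy 1.11.5 were left out, 3223 of 25,060 control nuclei (12.9%) and 2514 of 23,043 in the other library (10.9%). Both libraries were clustered together (3000 variable genes, 30 components, 15 neighbours, Leiden resolution 1, leidenalg 0.10.2), with no batch correction. The 9 genes, Y-linked genes, Xist, Tsix and mitochondrial genes were left out of the clustering, and other X-linked genes were not. Clusters were named from 25 marker sets. A minimum mean log2 fold of 1 for the markers, and of 5 nuclei per library, was chosen once the clusters were known. Unnamed clusters held 2283 control nuclei (10.5%) and 2553 nuclei of the other library (12.4%).

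Counts were summed per library and class, and 0.5 UMI was added for ratios. Intervals were exact (scipy 1.17.1): Poisson for sums, conditional binomial for ratios. With 1 library per group no test was made. The code for ratios was tested on simulated data. All 9 members are described. Partners are named where they passed by size in the dentate granule-like, CA3-like, CA1-like or inhibitory-like class, and otherwise up to 2 per role. For likeness, the 3 genes with the highest correlation to a member were taken. The listed partners past the size rule in other classes were named after their values were seen. The members, lists and rules were chosen with earlier results of these data known. Alternatives were another scaling, other minimums, doublets kept, thinning to 2000 UMIs, free RNA subtracted, each sex alone and other clusterings. After the data had been seen, 2 more were added: leaving out nuclei with UMIs of both sexes, and leaving out the 5 nuclei richest in a gene. Ratios within clusters at resolution 2 were added then too. Female nuclei had at least 2 Xist UMIs and no Y-linked UMI, and male nuclei no Xist UMI and at least 1 Y-linked UMI.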

Additional observations from a re-analysis of the deposited data

Results flagged for a closer look

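For 8 pairs of a gene and a class, the counting intervals of the female and the male log2 ratio lay on opposite sides of 0. Each library pooled 1 female and 2 males, so sex and mouse cannot be told apart, and the difference between the sexes was not tested. In astrocyte-like nuclei the ratio was -0.15 in female and 0.21 in male nuclei for Tenm3, and -0.21 and 0.51 for Tenm4. In CA1-like nuclei it was -0.056 and 0.13 for Tenm2, and 0.10 and -0.065 for Tenm3. Tenm1 in inhibitory-like nuclei gave -0.048 and 0.13. Tenm3 in deep cortical layer-like nuclei gave -0.084 and 0.19, and Tenm2 in subicular-like nuclei gave -0.057 and 0.27. The widest gap was that of Tenm2 in cycling progenitor-like nuclei, at 0.96 and -0.61. None of the 8 pairs was past the size threshold with both sexes together.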

How the results depend on the processing

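Over 12 alternatives, the 7 ratios past the size threshold gave 84 values, of which 80 kept their sign and 69 were still at least 2-fold. The alternative with other minimums changes no ratio, so its values repeat the main ones here and in the counts of ratios below. Flrt2 in dentate granule-like nuclei was at least 2-fold in all 12. The 4 reversals were all in Cajal-Retzius-like nuclei: Tenm1 at -0.012 with doublets kept, and Tenm3 at -0.16 in female nuclei, -1.81 in male nuclei and -0.63 without the 5 nuclei richest in it. The count of members past the threshold in dentate granule-like nuclei was 2 in male nuclei, where Tenm4 joined Flrt2, and 1 otherwise. In CA3-like, CA1-like and inhibitory-like nuclei it was 0 under every alternative run. In oligodendrocyte-like nuclei it was 3, 2 in female nuclei and 0 with doublets kept. In committed oligodendrocyte precursor-like nuclei it was 0, and 1 or 2 under 5 alternatives. In CA2-like nuclei it was 0, and 1 at resolution 2 or with free RNA subtracted, and in radial glia-like nuclei 0, and 1 in male nuclei. In Cajal-Retzius-like nuclei it was 3, and 1 or 0 with doublets kept, in either sex alone or after thinning. Without the 5 nuclei richest in each gene, Tenm1 alone of those 3 was still 2-fold apart. Of 1719 alternative ratios over all members and classes, 1366 lay within the main counting interval, 349 lay outside it, and the others were the 4 reversals. Reversals were counted for the 7 ratios past the threshold alone, and ratios near 0 changed sign under some alternatives, such as Tenm4 in oligodendrocyte precursor-like nuclei, which kept its sign in 4 of 12. Median-of-ratios scaling lowered every ratio of CA2-like nuclei by 0.11 and of CA1-like nuclei by 0.099, and raised those of oligodendrocyte-like nuclei by 0.09, so smaller ratios in these classes have no fixed direction. The cause of these shifts was not tested. No paired analysis was possible because each group is 1 library. Depth limited pairs with few UMIs, such as Adgrl2 in CA3-like nuclei with 69 and 58.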
